A study of Mus musculus with 8 samples.

Results

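Transcript levels of 33 genes of cholesterol and fatty acid synthesis were followed across mouse embryonic fibroblasts that carry, lack or have regained Taf4. The genes are a chosen list of pathway enzymes, regulators and a sterol carrier. Their members were found by symbol in a table of 23235 genes, and the values of a gene's transcripts were added, which brought 40 transcripts to 33 genes. TAF4 is a subunit of TFIID, the general transcription factor that helps place RNA polymerase II at promoters, and TAFH is a conserved domain of TAF4. All cells come from strain C57BL/6, and all were grown in serum-containing medium, with 2 libraries in each of 4 groups. TAFH-deleted rescue cells are Taf4 -/- fibroblasts that stably express human TAF4 without the TAFH domain, as clone 1 and clone 2. Wild-type rescue cells are Taf4 -/- fibroblasts that stably express full-length human TAF4, again as clone 1 and clone 2. Knockout cells are Taf4 -/- with no transgene listed. Control cells are Taf4 loxp/-, meaning 1 floxed and 1 null allele; the genotype field nonetheless lists them as wild type. Each rescue library is a single clone, and the labels give neither the promoter of the human transgene nor the number of embryos the lines came from. The clones are therefore the only repeats of a rescue form, and clone-to-clone differences enter the spread between them. An effect of the human protein that both clones share enters the group mean. It cannot be told apart from the rescue in a comparison with knockout.

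Cells make cholesterol from acetyl-CoA through the mevalonate pathway, which first builds isoprenoid units, then joins them to squalene, closes the ring and trims the product to cholesterol. The transcription factors SREBP1 and SREBP2, encoded by Srebf1 and Srebf2, are held in the endoplasmic reticulum by SCAP and INSIG proteins while sterol is plentiful, and they switch on these enzymes when sterol runs low. SREBP1 is best known for the genes of fatty acid synthesis, in which acetyl-CoA and malonyl-CoA are built into saturated chains that are later elongated and desaturated.

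The unit throughout is FPKM, the fragments of a transcript per kilobase and per 1e6 fragments, as the authors deposited it. The steps between low FPKM values imply library totals of 14.3 to 17.3, in 1e6 fragments. The difference within the knockout pair (chi-square per gene 0.608 ± 0.0306 SE) and within the control pair (0.776 ± 0.0347) was under sampling noise, so each pair was counted as 1 sample. The clones of a form differed by more than sampling noise, with 2.39 ± 0.0951 for TAFH-deleted rescue and 1.64 ± 0.0639 for wild-type rescue. The labels do not mention separate cultures, and the p-values cover only the spread among the libraries at hand, which may be technical. The targeted gene, listed as Taf4a, gave 14.7 and 19.2 FPKM in TAFH-deleted clones, 14.5 and 15.03 in wild-type rescue clones, 12.5 and 12.4 in knockout libraries and 11.1 and 11.5 in control libraries. Knockout libraries were thus slightly above control libraries and below the rescue clones, so the level does not follow the labelled loss of Taf4. The removed exons are not given in the labels, and what the Taf4a value says of the deletion was not tested. Of 7 fibroblast markers 6 were tested, and the markers summed to 559 to 681 FPKM in every library, with Thy1 at or near 0. For TAFH-deleted minus wild-type rescue, the difference in log2(FPKM + 1) was positive for 3 of the 6 and negative for 3. None had a limma adjusted p under 0.05. Vim (0.18), Col1a2 (0.08) and Col1a1 (0.06) rose, Fn1 fell (-0.22), and Pdgfrb and Col3a1 fell most. Pdgfrb measured 57.6 and 34.5 FPKM in TAFH-deleted clones against 73.7 and 75.1 FPKM in wild-type rescue clones. Col3a1 measured 97.4 and 68.7 FPKM against 106.1 and 104.1 FPKM in the same groups. In each library the fullest gene had implied fragments for 103.2 to 106.5% of the positions at which a read could start on either strand. Vim was at or near that share, with Col1a1 and Col1a2 not far below. Whether this limit sets their FPKM, and so the marker sum, was not tested. The part of the fibroblast markers in the results was not tested. In bulk RNA, fewer cells with a transcript and less transcript per cell cannot be told apart.

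Of the 33 genes, 32 passed the filter of at least 1 FPKM in at least 2 libraries. Hmgcs1, which makes HMG-CoA at the entry of the mevalonate pathway, is listed at 0 in all 8 libraries. Its transcripts are placed on an unassembled part of chromosome 13 in the table, so the 0 need not mean that no transcript was present. Idi1, which isomerises isopentenyl diphosphate, passed only through the control libraries, at 1.07 and 1.09 FPKM, so its lower values elsewhere (0.264 to 0.763 FPKM) go with the filter. The other genes lay between 2.29 FPKM, for Acaca in TAFH-deleted clone 1, and 86.0 FPKM, for Scd2 in the same clone. Differences below are log2(FPKM + 1) values, so those of low genes are understated. They come from limma fitted over 12025 genes, and the word called marks a Benjamini-Hochberg adjusted p under 0.05.

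Between the rescue forms, most sterol genes stood higher in TAFH-deleted than in wild-type rescue clones, and 1 gene passed the test. That gene was Ebp, the sterol isomerase that moves the ring double bond late in cholesterol synthesis. Ebp measured 23.4 and 25.9 FPKM in TAFH-deleted clones, against 10.6 and 11.9 FPKM in wild-type rescue clones. Both TAFH-deleted clones were near the knockout libraries, at 23.8 and 22.4 FPKM, and near the control libraries, at 23.9 and 22.3 FPKM, and the wild-type rescue clones stood alone below them. Ebp averaged 24.6 ± 1.82 FPKM in TAFH-deleted and 11.2 ± 0.915 FPKM in wild-type rescue (SD, n = 2 clones each). The log2 difference was 1.07 ± 0.13 (SE), with an adjusted p of 0.0496 in limma with Benjamini-Hochberg adjustment. Of the 32 tested genes, 1 was called, against 2.62% of all genes tested, where 0.931% of all genes were called higher and 1.69% lower. The call lies at the threshold, and the adjusted p of Ebp in limma was between 0.0504 and 0.0836 with a pseudocount of 0.1, with no filter, with short transcripts kept, after quantile normalization or in a fit of the rescue groups alone. Without wild-type rescue clone 1 the log2 difference of Ebp was 0.9947, and without wild-type rescue clone 2 it was 1.148. Each of these fits leaves 1 wild-type rescue clone, so they cannot show whether the call of Ebp depends on either clone. Without TAFH-deleted clone 1 or without clone 2, when the spread comes from the wild-type rescue clones alone, 13 of the 32 genes (40.6%; 11 higher, 2 lower) were called, against 55.9% of all genes without clone 1 and 40% without clone 2.

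Ebp and Nsdhl are the 2 tested genes of the list on the X chromosome, and X-linked genes as a whole stood higher in TAFH-deleted clones. The 381 tested X genes had a median log2 difference of 0.59 (interquartile range 0.30 to 0.91) between TAFH-deleted and wild-type rescue, against 0.05 for the 11644 tested genes elsewhere. Of these X genes 86.4% were higher and 53 were called higher. The difference of Ebp was larger than that of 85.8% of the X genes, and the difference of Nsdhl was larger than that of 82.7%. The part of the X chromosome in both values was not tested. Without them, the 30 other genes of the list had a median of 0.26, with 23 higher and 7 lower.

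Nsdhl, a dehydrogenase that removes the C4 carbons of the sterol ring, came next to Ebp in size. It measured 15.9 and 14.8 FPKM in TAFH-deleted clones, against 6.83 and 7.34 FPKM in wild-type rescue clones. The groups did not overlap, and knockout (13.7 and 11.9 FPKM) and control libraries (17.8 and 17.3 FPKM) were both above wild-type rescue. Its log2 difference between the forms was 1.02 ± 0.15 with an adjusted p of 0.0576 in limma, so it was not called.

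Promoter sequence was read for the genes of the list from RefSeq windows on GRCm38.p6, which reach from 250 bases before to 50 after an annotated start. Of the 33 genes 26 had a window, 34 windows in all. The CCAAT box, read as ATTGG on the other strand and bound by NF-Y, a partner of the SREBP proteins, was in 64.7% of these windows and in 21 of the 26 genes, against 37.4% of all 32851 windows. The sterol regulatory element core TCACNCCAC (GTGGNGTGA on the other strand) was in 1 gene, Hmgcs1, or 2.94% of the windows, against 1.24% of all. The E-box CACGTG was in 17.6% of the windows, against 7.15% of all. These were 6 windows of 5 genes, and the windows of Scap among them overlap each other. Boxes of E proteins were searched because the series title names those factors. CAGCTG was in 11.8% of the windows, against 16.3% of all. CACCTG, which reads CAGGTG on the other strand, was in 23.5%, against 20.2% of all. A match describes letters in a window and is not a binding site, and none of the data measure binding. Shown are the stretches upstream of the start that hold the matches, for the X-linked sterol genes and for Hmgcs1, the single gene with the sterol element. Capitals mark the CCAAT box on either strand and, in Hmgcs1, also the sterol element. Ebp (chrX:8193548-8193697, minus strand) and Nsdhl (chrX:72918397-72918520, plus strand) each have 2 boxes, and Hmgcs1 (chr13:119690101-119690325, plus strand) has 3. Coordinates count from 1, and each sequence runs 5′ to 3′ on the gene's own strand.
Ebp: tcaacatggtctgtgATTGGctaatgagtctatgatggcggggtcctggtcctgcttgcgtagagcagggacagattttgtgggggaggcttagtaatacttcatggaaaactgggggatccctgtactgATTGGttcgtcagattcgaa
Nsdhl: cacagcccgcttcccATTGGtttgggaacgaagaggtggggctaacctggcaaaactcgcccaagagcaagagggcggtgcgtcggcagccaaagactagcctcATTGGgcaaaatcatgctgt
Hmgcs1: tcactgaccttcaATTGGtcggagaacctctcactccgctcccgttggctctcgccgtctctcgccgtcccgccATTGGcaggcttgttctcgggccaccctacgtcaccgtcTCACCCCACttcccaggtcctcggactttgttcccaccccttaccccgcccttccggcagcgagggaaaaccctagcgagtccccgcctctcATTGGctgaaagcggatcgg

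**Figure D1:**
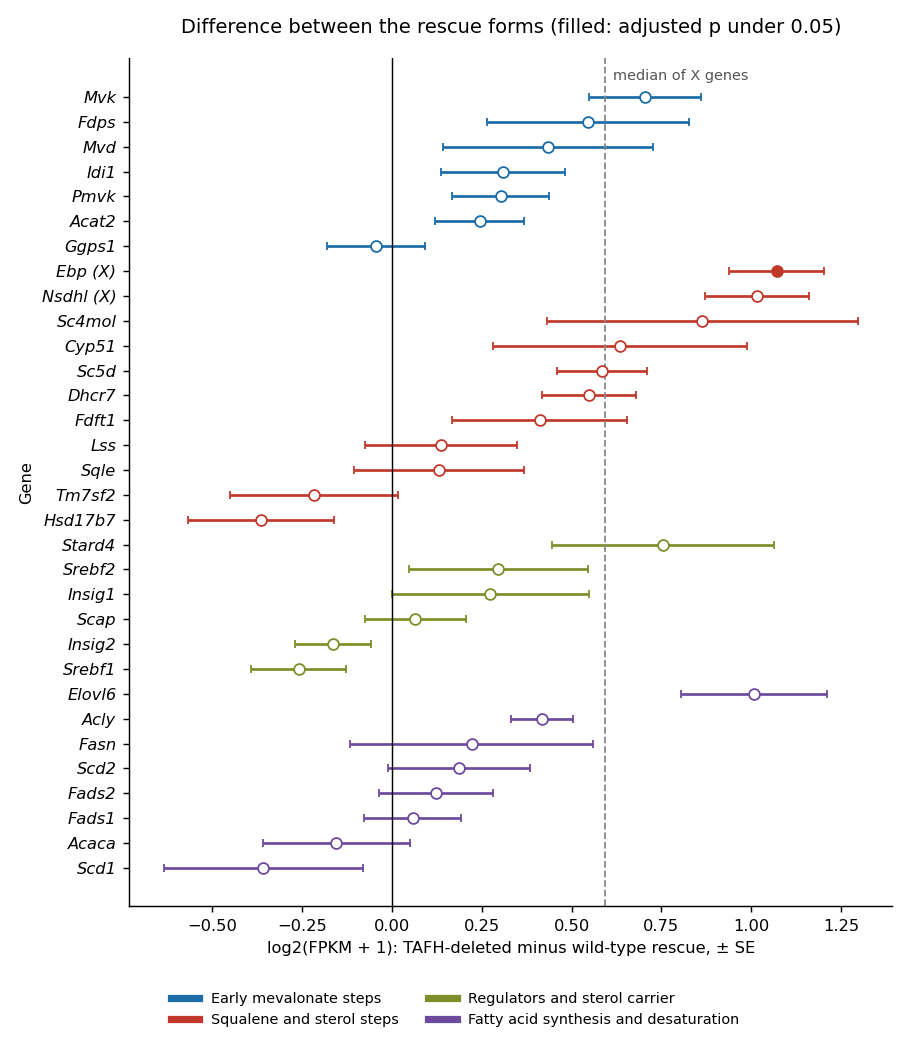
Difference in log2(FPKM + 1) between TAFH-deleted and wild-type rescue for the 32 tested genes, ordered by size within their roles; points are differences, bars ± SE, and the dashed line is the median of X-linked genes (0.59). Ebp (1.07) is the only filled point, Nsdhl (1.02) and Elovl6 (1.01) lie close to it, and 25 of 32 points are to the right of 0.

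By role, the 11 tested genes of the squalene and sterol steps had the largest median of the 4 role groups, 0.55, with 9 higher and 2 lower in TAFH-deleted clones. This role holds both X-linked genes, Ebp and Nsdhl. The 7 genes of the early mevalonate steps had a median of 0.31 with 6 higher, and without the low gene Idi1 one of 0.37 with 5 of 6 higher. The 6 genes of regulators and sterol carrier had a median of 0.17 with 4 higher, and the 8 fatty acid genes one of 0.16 with 6 higher. All 32 had a median of 0.29 with 25 higher and 7 lower, and all genes tested had 0.06, with 56% above 0 and 43.9% below. The list median depends on the wild-type rescue clone: it was 0.13 (21 higher, 11 lower) without clone 1 and 0.43 (26 higher, 6 lower) without clone 2, and the spread of the median between clones was 0.289, as large as the median itself. In 16 of the 32 genes both TAFH-deleted clones lay above both wild-type rescue clones, where 37.1% of all genes did so. In 3 genes (Srebf1, Insig2 and Hsd17b7) both lay below, where 26.4% of all genes did so. At an unadjusted p under 0.05, 7 of the 32 genes passed in limma, all higher (Ebp, Nsdhl, Elovl6, Acly, Sc5d, Mvk and Dhcr7), against 28.8% of all genes in either direction.

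In the early mevalonate steps, Mvk, the kinase that phosphorylates mevalonate, measured 24.4 and 30.6 FPKM in TAFH-deleted clones, against 15.5 and 17.4 FPKM in wild-type rescue clones. The groups did not overlap (log2 difference 0.70 ± 0.16, limma adjusted p 0.0864), and control libraries were higher still at 33.9 and 31.9 FPKM. Pmvk, which adds the next phosphate, measured 35.9 and 29.6 FPKM in TAFH-deleted clones, against 24.9 and 27.6 FPKM in wild-type rescue clones. Acat2, a thiolase that joins acetyl-CoA units, measured 20.2 and 19.3 FPKM in TAFH-deleted clones, against 15.5 and 17.6 FPKM in wild-type rescue clones. These 3 genes were higher in both TAFH-deleted clones, without a call. Ggps1, which makes geranylgeranyl diphosphate outside the sterol branch, was the exception among the 7, at 23.6 and 19.6 FPKM in TAFH-deleted clones and 22.6 and 21.8 FPKM in wild-type rescue clones.

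In the late sterol steps, Sc5d, the desaturase that acts after Ebp, measured 37.5 and 39.1 FPKM in TAFH-deleted clones, against 22.9 and 27.7 FPKM in wild-type rescue clones. Dhcr7, the reductase that yields cholesterol in one branch of the pathway, measured 18.0 and 19.4 FPKM in TAFH-deleted clones, against 12.2 and 12.7 FPKM in wild-type rescue clones. For both genes the TAFH-deleted clones were the highest of all libraries, and Dhcr7 measured 14.3 and 14.1 FPKM in knockout and 13.9 and 14.005 FPKM in control libraries. Hsd17b7, a ketoreductase that works beside Nsdhl, went the other way, at 6.46 and 8.39 FPKM in TAFH-deleted clones against 9.06 and 10.5 FPKM in wild-type rescue clones (log2 difference -0.36 ± 0.20, limma adjusted p 0.307). Its knockout libraries, at 9.38 and 9.77 FPKM, and control libraries, at 8.88 and 9.10 FPKM, were also above the TAFH-deleted clones. Tm7sf2, a sterol reductase, was level in the TAFH-deleted clones (3.52 and 3.48 FPKM) and differed between the wild-type rescue clones (3.45 and 5.15 FPKM). Fdft1, which makes squalene, measured 16.2 and 14.1 FPKM in TAFH-deleted clones, against 8.95 and 13.7 FPKM in wild-type rescue clones. Lss, the cyclase that closes the ring, measured 10.5 and 13.7 FPKM in TAFH-deleted clones and 9.63 and 12.2 FPKM in wild-type rescue clones, and its groups overlapped.

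Among the fatty acid genes, Elovl6, which elongates saturated and monounsaturated chains, measured 27.2 and 23.1 FPKM in TAFH-deleted clones, against 10.2 and 13.99 FPKM in wild-type rescue clones. The TAFH-deleted clones were also above the knockout (15.6 and 15.1 FPKM) and control libraries (16.0 and 16.3 FPKM). The log2 difference between the forms was 1.01 ± 0.20 with an adjusted p of 0.0779 in limma. Acly, which makes cytosolic acetyl-CoA from citrate, measured 49.6 and 51.6 FPKM in TAFH-deleted clones, against 35.9 and 39.5 FPKM in wild-type rescue clones. Scd1, a desaturase that makes monounsaturated chains, measured 44.4 and 26.2 FPKM in TAFH-deleted clones, against 40.7 and 47.7 FPKM in wild-type rescue clones. Its groups overlapped (log2 difference -0.36 ± 0.28, limma adjusted p 0.441), and without TAFH-deleted clone 2 the difference was 0.0096. Its relative Scd2 measured 86.0 and 58.9 FPKM in TAFH-deleted clones, against 60.9 and 63.8 FPKM in wild-type rescue clones. Fasn, which assembles palmitate, measured 11.9 and 22.9 FPKM in TAFH-deleted clones, against 13.1 and 15.1 FPKM in wild-type rescue clones. For Scd1, Scd2 and Fasn the TAFH-deleted clones thus stood on either side of the wild-type rescue clones or overlapped them. The same held for Fads1, a desaturase of polyunsaturated chains, at 54.1 and 42.9 FPKM in TAFH-deleted clones and 45.2 and 47.3 FPKM in wild-type rescue clones. Fads2, which acts beside Fads1, measured 80.3 and 59.9 FPKM in TAFH-deleted clones and 61.4 and 65.9 FPKM in wild-type rescue clones. Acaca, which makes malonyl-CoA, measured 2.29 and 3.10 FPKM in TAFH-deleted clones and 2.89 and 3.30 FPKM in wild-type rescue clones.

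Fabp4, a fatty acid carrier on the adipocyte marker list, was called lower in TAFH-deleted than in wild-type rescue clones. It measured 21.0 and 19.7 FPKM in TAFH-deleted clones, against 57.5 and 50.4 FPKM in wild-type rescue clones. Knockout libraries, at 53.9 and 51.3 FPKM, and control libraries, at 51.7 and 52.1 FPKM, were near the wild-type rescue clones. The 5 other adipocyte markers (Adipoq, Cidec, Plin1, Cfd and Lep) were between 0 and 0.0575 FPKM in every library. Epithelial markers summed to 1.20 and 4.80 FPKM in TAFH-deleted clones and to 0.835 and 0.318 FPKM in wild-type rescue clones, most of it Krt19, with Epcam at 0. Macrophage markers summed to 1.18 and 4.54 FPKM in TAFH-deleted clones and to 2.87 and 3.36 FPKM in wild-type rescue clones, with Ptprc at 0 in all 4. Endothelial sums were at most 0.398 FPKM and hepatocyte sums at most 0.845 FPKM in any library. The part of these markers in the values above was not tested.

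Among the regulators, Srebf1 measured 17.5 and 20.5 FPKM in TAFH-deleted clones and 21.9 and 23.8 FPKM in wild-type rescue clones. Knockout libraries were lowest, at 17.1 and 16.5 FPKM, and control libraries highest, at 29.2 in both. The log2 difference between the forms was -0.26 ± 0.13, with an adjusted p of 0.273 in limma. Srebf2 measured 41.7 and 41.6 FPKM in TAFH-deleted clones, 26.4 and 43.0 FPKM in wild-type rescue clones, 43.1 and 43.4 FPKM in knockout libraries and 44.9 and 45.0 FPKM in control libraries. Wild-type rescue clone 1 was thus far below the 7 other libraries. Insig1, which retains SCAP and is itself a target of the SREBP proteins, measured 12.4 and 9.40 FPKM in TAFH-deleted clones, 7.05 and 10.8 FPKM in wild-type rescue clones, 9.31 and 9.86 FPKM in knockout libraries and 11.4 and 11.7 FPKM in control libraries. The lowest value was again that of wild-type rescue clone 1. Scap measured 29.5 and 37.2 FPKM in TAFH-deleted clones, 30.9 and 32.4 FPKM in wild-type rescue clones, 28.6 and 28.03 FPKM in knockout libraries and 34.6 and 35.5 FPKM in control libraries. Insig2, a relative of Insig1, covered 30.7 to 38.3 FPKM across the 8 libraries.

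**Figure D2:**
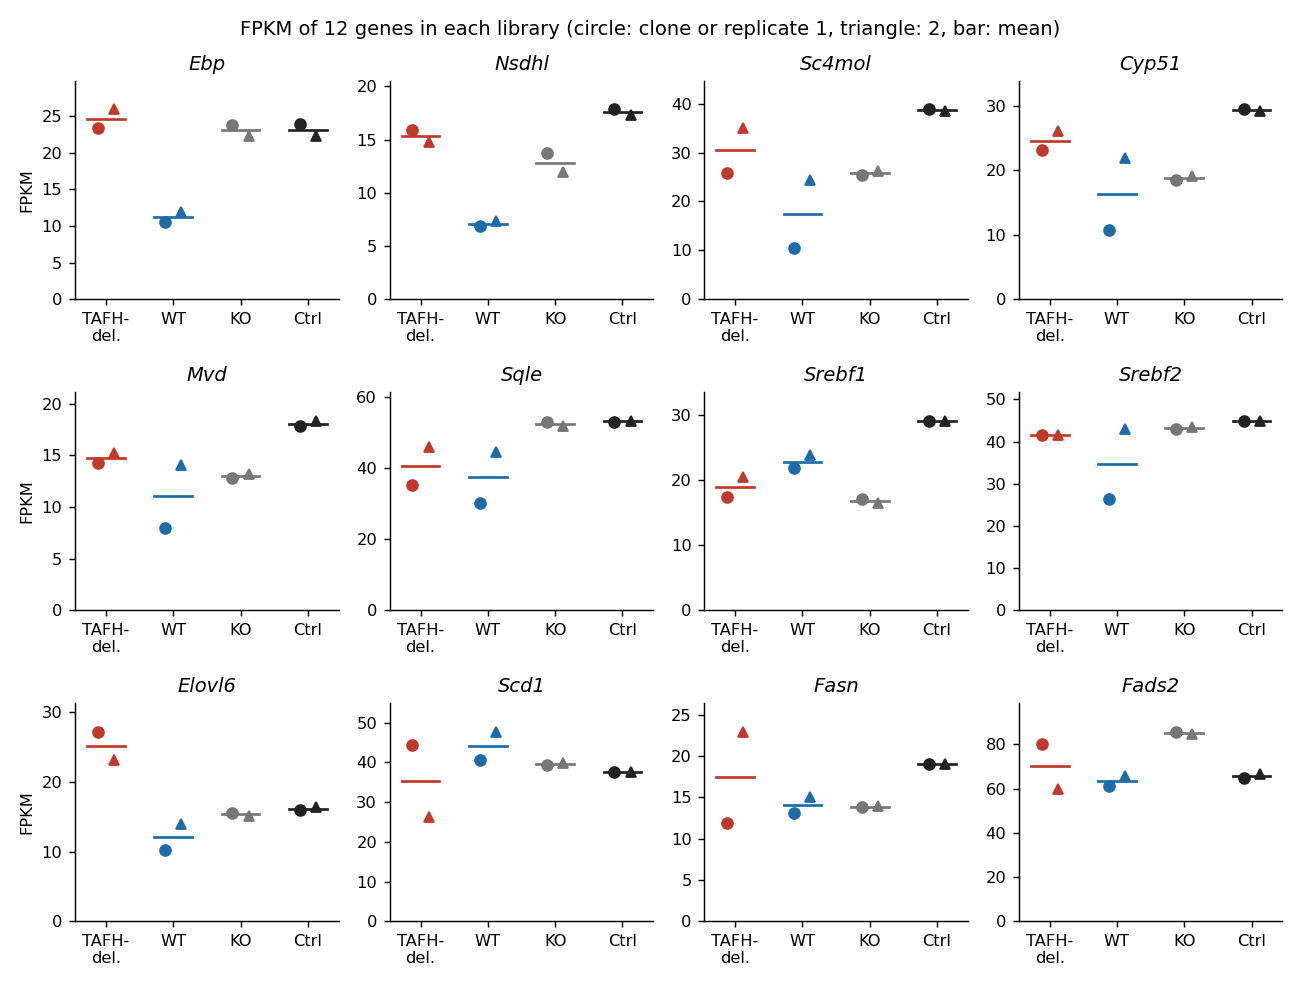
FPKM of 12 genes in each library, one panel per gene with its own axis from 0; circles are clone or replicate 1, triangles clone or replicate 2, and bars group means. Both wild-type rescue clones lie lowest for Ebp and Nsdhl, while only wild-type rescue clone 1 (10.5 FPKM) lies far below the other libraries for Sc4mol.

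The wild-type rescue clones were not alike in this pathway. Clone 1 was below clone 2 in 31 of the 32 tested genes, the exception being Ggps1 at 22.6 FPKM in clone 1 and 21.8 FPKM in clone 2. Over all genes tested, clone 1 was below clone 2 in 50.8%. The median difference of clone 1 minus clone 2 was -0.19 for the 32 genes, against -0.0019 for all genes. Clone 1 was at least 1.5-fold below clone 2 on the log2(FPKM + 1) scale in 5 of the 32 genes (15.6%), namely Sc4mol, Cyp51, Mvd, Srebf2 and Stard4, where 0.491% of all genes were and 1.96% of all genes were that far apart in either direction. These clones are single samples, so the difference between them has no replicate check and no p-value.

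Sc4mol, named Msmo1 in newer annotations, is the oxidase that acts on the C4 methyl groups, and its wild-type rescue clones were 2.32-fold apart in FPKM. Sc4mol measured 25.9 and 35.1 FPKM in TAFH-deleted clones, 10.5 and 24.4 FPKM in wild-type rescue clones 1 and 2, 25.3 and 26.3 FPKM in knockout libraries and 38.8 and 38.6 FPKM in control libraries. Cyp51, the demethylase that acts before it, measured 23.1 and 26.1 FPKM in TAFH-deleted clones, 10.8 and 22.0 FPKM in wild-type rescue clones 1 and 2, 18.6 and 19.1 FPKM in knockout libraries and 29.4 and 29.2 FPKM in control libraries. For both genes clone 1 was the lowest library, and clone 2 lay just below knockout for Sc4mol and above it for Cyp51. Mvd, the decarboxylase that ends the early steps, measured 7.98 FPKM in wild-type rescue clone 1 and 14.1 in clone 2, while its other 6 libraries ranged from 12.8 to 18.3 FPKM. Stard4, a carrier that moves sterol between membranes, measured 5.85 FPKM in wild-type rescue clone 1 and 9.31 in clone 2, while its other 6 libraries ranged from 10.8 to 16.0 FPKM. Sqle, the squalene oxygenase, measured 35.3 and 45.8 FPKM in TAFH-deleted clones, 30.2 and 44.4 FPKM in wild-type rescue clones, 52.8 and 51.8 FPKM in knockout libraries and 52.8 and 53.2 FPKM in control libraries. All 4 rescue clones were below knockout and control for Sqle, and clone 1 was the lower clone of both forms.

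The upstream stretches of 3 genes with at least 1.5-fold lower values in wild-type rescue clone 1 are shown the same way, with the CCAAT box in capitals. Sc4mol (chr8:64733614-64733753, minus strand) holds 3 boxes on the gene's strand, Cyp51 (chr5:4104707-4104741, minus strand) holds 1, and Mvd (chr8:122443430-122443497, minus strand) holds 1 on each strand. The box is not particular to them, since Srebf1 and Insig2, whose wild-type rescue clones were within 1.5-fold of each other, carry it too.
Sc4mol: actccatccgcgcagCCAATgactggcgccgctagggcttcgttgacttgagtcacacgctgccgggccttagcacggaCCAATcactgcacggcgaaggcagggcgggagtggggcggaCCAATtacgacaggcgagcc
Cyp51: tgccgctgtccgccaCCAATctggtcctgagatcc
Mvd: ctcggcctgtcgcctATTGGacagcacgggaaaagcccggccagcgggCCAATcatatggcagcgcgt

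**Figure D3:**
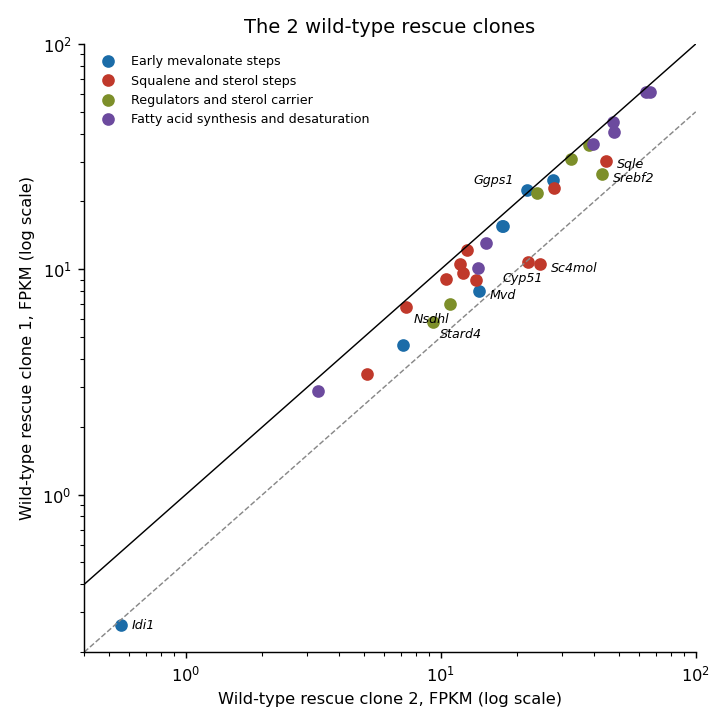
FPKM of the 32 tested genes in wild-type rescue clone 1 against clone 2, both on log axes and coloured by role; the solid line marks equal values and the dashed line 2-fold lower in clone 1. Ggps1 is the single gene above the solid line, and Sc4mol, Cyp51 and Idi1 lie on or below the dashed one.

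Taking the 6 samples together, wild-type rescue clone 1 had the lowest level in 21 of the 32 genes (65.6%), where it was lowest in 17.8% of all genes tested. It was lowest in 6 of 7 early mevalonate genes, in 10 of 11 sterol genes, in 3 of 6 regulators and carrier, and in 2 of 8 fatty acid genes. Control was the highest sample in 14 of the 32 genes (43.8%), against 15.3% of all genes. Idi1 is among the 14, and its higher level in control goes with the filter. The TAFH-deleted clones, whose log2 values differ more over all genes (SD of the difference 0.575, against 0.203 between wild-type rescue clones), had an SD of 0.344 on the list. The SD between wild-type rescue clones on the list was 0.286. TAFH-deleted clone 1 was below clone 2 in 18 of the 32 genes, against 50.9% of all genes. Of the 32 genes, 2 were at least 1.5-fold apart between TAFH-deleted clones, Fasn and Scd1, where 20.5% of all genes were.

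Between knockout and control, most sterol genes were lower in knockout, and the fatty acid genes had no common direction. The 32 genes had a median log2 difference of -0.17, with 10 higher and 22 lower, against -0.03 for all genes tested, of which 54.9% were lower. Without Idi1, whose lower level in knockout goes with the filter, the median was -0.13 with 10 higher and 21 lower, and the early mevalonate steps had a median of -0.25 with 4 of 6 lower. The sterol steps had a median of -0.26 with 8 of 11 lower. Among those 8, Sqle (-0.019) and Ebp (-0.0020) were nearly level, and their libraries overlapped. In 6 of the 11 both knockout libraries were below both control libraries, where 49.6% of all genes were. The regulators and carrier had a median of -0.27 with 5 of 6 lower, and 4 of 8 fatty acid genes were lower. None of the 32 genes was called in limma, and 0% of all genes were, while 2 of the 32 (Srebf1 and Mvk) and 9.21% of all genes had an unadjusted p under 0.05. Each side is a single sample here, and the test assumes that it varies as the rescue clones do. Without TAFH-deleted clone 1 or without clone 2, 3 of the 32 were called (1 higher, 2 lower), against 22.6% and 22.1% of all genes. Both knockout libraries were below both control libraries in 20 of the 32 genes, Idi1 among them (49.6% of all genes), and above them in 10 (40.3% of all genes).

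Srebf1 had the largest difference, with 17.1 and 16.5 FPKM in knockout libraries against 29.2 in both control libraries (log2 difference -0.76 ± 0.19, limma adjusted p 0.412). Mvk measured 20.8 and 20.7 FPKM in knockout libraries, against 33.9 and 31.9 FPKM in control libraries (-0.64 ± 0.22, limma adjusted p 0.525). Cyp51, with the values above, had a difference of -0.61 ± 0.50 and a limma adjusted p of 0.728. These 3 were the largest decreases in value by the naming rule, and none was called. In the other direction, Fads2, the desaturase that starts the making of long polyunsaturated chains, measured 85.8 and 84.7 FPKM in knockout libraries against 64.7 and 66.5 FPKM in control libraries. Scd2 measured 72.6 in both knockout libraries against 62.8 and 62.2 FPKM in control libraries. Pmvk measured 33.2 and 33.0 FPKM in knockout libraries against 28.3 and 28.4 FPKM in control libraries. The control and knockout pairs separated for all 3, with limma adjusted p between 0.653 and 0.817. Fasn measured 13.9 in both knockout libraries against 19.0 in both control libraries. Scd1 measured 39.2 and 39.8 FPKM in knockout against 37.5 and 37.7 FPKM in control libraries.

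In this comparison the less abundant genes of the list were mostly lower in knockout, and the more abundant ones went both ways. The implied fragments of Fads2 filled 48.6 to 63.5% of the positions at which a read could start on either strand, and those of Scd2 47.8 to 61.4%. Genes above 20% on average also included Sqle, Fads1, Acly and Scd1, as well as Sc4mol and Scap, which were lower in knockout. In the 20 genes under 20%, the median difference between knockout and control was -0.36, with 3 higher and 17 lower. The 17 include Idi1, whose lower level goes with the filter, and the same split was not made for all genes tested. Whether the share of starts in use shifts the FPKM of the abundant genes was not tested. After quantile normalization the median of the 32 genes was -0.050, with 15 higher and 17 lower.

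Fdps, which makes farnesyl diphosphate, is split between 2 transcripts in the table. Its 1245-base transcript had 1.03 to 6.30 FPKM in the 6 rescue and knockout libraries and was listed at 0 in both control libraries. The 1461-base transcript had 1.64 to 5.65 FPKM in those 6 libraries, against 10.6 and 10.7 FPKM in control libraries. Summed, Fdps measured 7.39 and 6.68 FPKM in knockout libraries against 10.6 and 10.7 FPKM in control libraries, and how Cufflinks divided the fragments was not tested. Some genes also share exon bases with neighbours in GENCODE, and the labels do not say whether strand was used in counting. Fdps shares 1124 bases with Gm43738 on the same strand, which counting by strand would not separate. Scd2 shares 61 bases with Mir5114 and Tm7sf2 14 with Vps51, also on the same strand. On the opposite strand, Scap shares 785 bases with 5830462I19Rik, Fdft1 774 with Ctsb, Cyp51 166 with Akap9 and Srebf1 109 with Rai1. Hmgcs1 shares 557 bases with Gm48342, Lss 381 with 4930483K19Rik and Idi1 323 with Gm48574, again on the opposite strand. The values of these genes are uncertain to that extent.

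**Figure D4:**
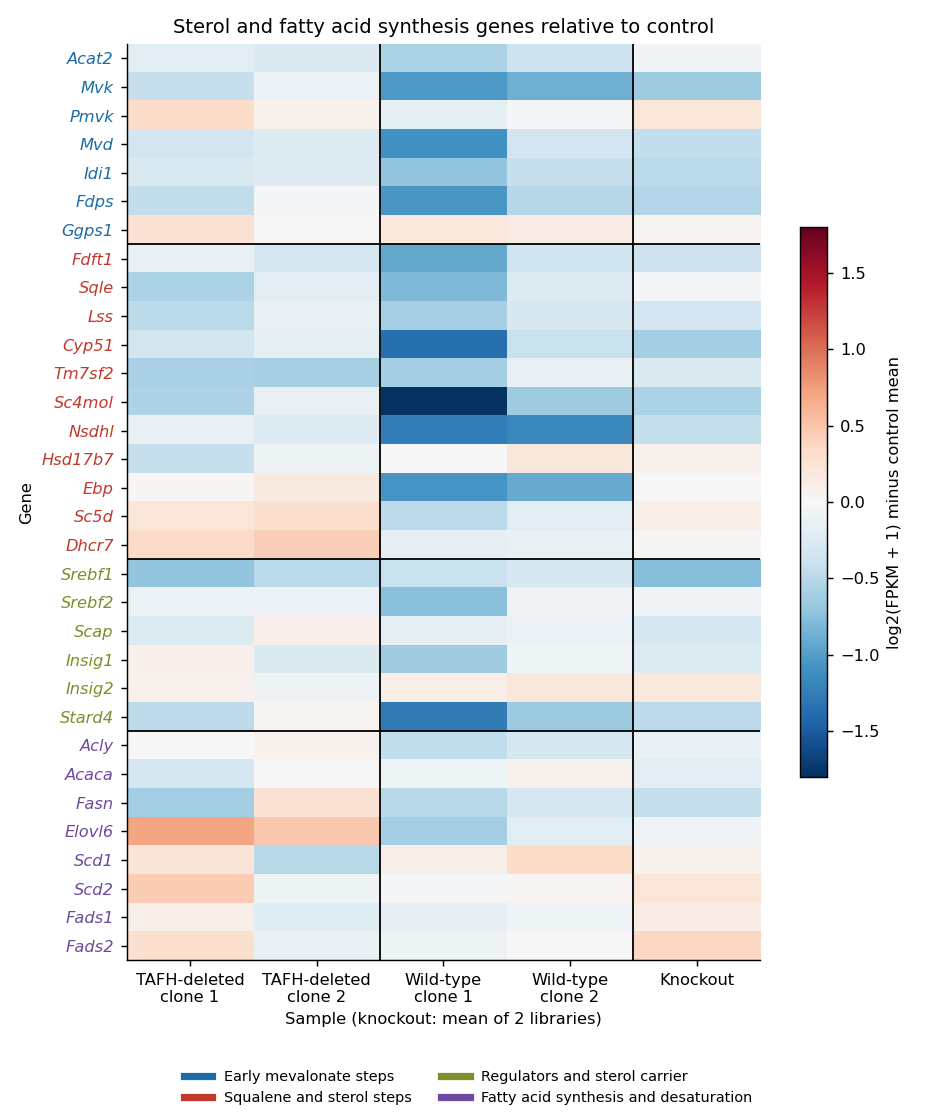
Difference in log2(FPKM + 1) from the control mean for the 32 tested genes, in each rescue clone and in the knockout mean; blue is lower and red is higher than control, and lines part the 4 role groups. Medians are -0.17 and -0.10 in TAFH-deleted clones 1 and 2, -0.58 and -0.23 in wild-type rescue clones 1 and 2 and -0.17 in knockout, and wild-type rescue clone 1 is the darkest blue column.

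Wild-type rescue was then set against knockout, which asks what full-length human TAF4 adds back. Ebp and Nsdhl, with the values above, were the lowest relative to knockout, with log2 differences of -0.98 ± 0.16 (limma adjusted p 0.231) and -0.78 ± 0.18 (limma adjusted p 0.281). X-linked genes had a median of -0.55 in the same comparison, with 10.0% higher, against -0.03 for genes elsewhere. The third was Sc4mol, at -0.65 ± 0.53 (limma adjusted p 0.657), and clone 2 alone lay just below knockout. Srebf1 had the largest positive difference among the 32, at 21.9 and 23.8 FPKM in wild-type rescue against 17.1 and 16.5 FPKM in knockout (0.42 ± 0.16, limma adjusted p 0.392). Scap (0.16) and Scd1 (0.15) were the next largest positive differences among genes with a group mean of at least 5 FPKM, with limma adjusted p of 0.755 and 0.889. None of the 32 genes was called in limma, and 0% of all genes were, while 4 of the 32 (Ebp, Nsdhl, Sc5d and Acat2, all lower) and 13.3% of all genes had an unadjusted p under 0.05. Without TAFH-deleted clone 1, 8 of the 32 (1 higher, 7 lower) and 26.7% of all genes were called, and without TAFH-deleted clone 2, 7 of the 32 (1 higher, 6 lower) and 26.6% of all genes were, so the gain in calls was shared with all genes.

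Over the list, the median of wild-type rescue minus knockout was -0.25, with 7 higher and 25 lower, against -0.04 for all genes, of which 54.7% were lower. Both wild-type rescue clones were below both knockout libraries in 16 genes (45.2% of all genes) and above them in 5 (36.4% of all genes). The list median depends on the clone. With clone 1 alone it was -0.39, with 5 higher and 27 lower, and with clone 2 alone it was 0.00033, with 16 higher and 16 lower. With clone 1 alone all 11 sterol genes were below knockout, with a median of -0.58, and with clone 2 alone 6 of 11 were below, with a median of -0.075.

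TAFH-deleted rescue was set against the same knockout sample, so this comparison and the one of wild-type rescue share it. The median of TAFH-deleted minus knockout was 0.14, with 21 higher and 11 lower, against 0.03 for all genes, of which 55.7% were higher and 44.2% lower. With TAFH-deleted clone 1 alone it was 0.073 (20 higher, 12 lower), and with clone 2 alone it was 0.18 (19 higher, 13 lower). Elovl6 had the largest difference (0.67 ± 0.25, limma adjusted p 0.752), followed by Mvk (0.38) and Dhcr7 (0.37). The largest negative ones were those of Sqle (-0.37), Hsd17b7 (-0.34) and Fads2 (-0.29), and the limma adjusted p of these 6 genes were between 0.752 and 0.817. Fads2 measured 80.3 and 59.9 FPKM in TAFH-deleted clones, against 85.8 and 84.7 FPKM in knockout libraries. None of the 32 genes was called in limma, and 0% of all genes were, while 0 of the 32 and 6.56% of all genes had an unadjusted p under 0.05. Both TAFH-deleted clones were above both knockout libraries in 13 genes (31.4% of all genes) and below them in 8 (23.5% of all genes). Without TAFH-deleted clone 1, 8 of the 32 genes (3 higher, 5 lower) and 33.4% of all genes were called by limma, and without TAFH-deleted clone 2 none of the 32 and 3.81% of all genes were.

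The authors' deposited table holds their own Cuffdiff calls per transcript. For knockout against control, the authors' deposited table marks 21 of 37 tested transcripts of these genes as significant, 5 higher and 16 lower, where it marks 53.8% of all tested transcripts. Acly and Fdps are in both counts, each with 1 transcript higher and 1 lower, and how Cufflinks divided their fragments was not tested. For wild-type rescue against knockout, the authors' deposited table marks 11 of 32, with Srebf1 higher and 10 lower, including Ebp, Nsdhl, Elovl6, Stard4 and Sc5d, where it marks 25.8% of all. Cyp51, Sc4mol, Sqle, Srebf2 and Idi1 are listed as not tested in that comparison, so they are not among the 32. For TAFH-deleted rescue against knockout, the authors' deposited table marks 0 of 37, where it marks 0.957% of all.

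Other genes around the pathway were listed apart from the 33, for sterol sensing and release, isoprenoids and further fatty acid steps. Of 45 genes 42 were tested. In TAFH-deleted against wild-type rescue 25 were higher and 17 lower, with a median of 0.03. Of all genes tested 56% were higher, with a median of 0.06. Of the 42 genes 1 was called, against 2.62% of all genes. That gene was Mbtps2, the site-2 protease that releases the active SREBP, which lies on the X chromosome. Mbtps2 rose to 24.7 and 24.4 FPKM in TAFH-deleted clones, against 12.1 and 11.2 FPKM in wild-type rescue clones, with 19.8 and 19.9 FPKM in knockout and 17.5 and 17.7 FPKM in control libraries. Of 9 genes of sterol efflux, storage and sensing, 7 were lower in TAFH-deleted clones (43.9% of all genes), with a median of -0.34 and no call. In that group Mylip, a ubiquitin ligase that lowers lipoprotein uptake, measured 20.2 and 6.59 FPKM in TAFH-deleted clones against 29.0 and 30.5 FPKM in wild-type rescue clones, so the clones differed more from each other than clone 1 did from wild-type rescue. In knockout against control 27 of the 42 were higher and 15 lower with none called by limma, a median of 0.07, and Dgat2, which completes triglycerides, measured 78.6 and 79.1 FPKM in knockout against 42.0 and 42.1 FPKM in control libraries. In wild-type rescue against knockout 12 were higher and 30 lower (median -0.13), where 54.7% of all genes were lower (median -0.04). In TAFH-deleted rescue against knockout 16 were higher and 26 lower (median -0.04), where 44.2% of all genes were lower (median 0.03). Again none was called by limma in either comparison, and 0% of all genes were.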

How the data were processed

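The mRNA of 8 mouse fibroblast libraries was sequenced, per the labels, and the submitters' processing notes name CASAVA 1.8, TopHat, Cufflinks, Cuffdiff and the mm9 build. The other versions and the counting options are not given in the sources used here. The authors deposited FPKM per RefSeq transcript for each library, transcript lengths, group means, and Cuffdiff p-values and q-values for 3 comparisons, per the file headers. Here the FPKM of a gene's transcripts were summed. Genes reaching 1 FPKM in 2 or more libraries and having a longest transcript of at least 300 bases were tested (12025 genes; 184 short ones were left out). Values entered limma 3.58.1 (R 4.3.3) as log2(FPKM + 1), with a trended variance, all 4 groups in 1 fit without covariates, two-sided tests and Benjamini-Hochberg adjustment at 0.05. The control and knockout pairs were averaged, which left 6 samples, 2 residual and 2.15 prior degrees of freedom, so the spread comes from the rescue clones. Fragments were read back from the FPKM steps (204.1 bases taken from the length), with 96.1 to 97.2% of low values whole within 0.05 fragments. The fit was tested on simulated data.

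The genes and lists were chosen with earlier results of these data known. Values in every library are given for called genes, for the 8 genes Hmgcs1, Sqle, Srebf1, Srebf2, Insig1, Fasn, Scd1 and Scd2, and per comparison for the 3 largest differences each way among genes with a group mean of at least 5 FPKM. Other genes named with values were chosen after their values were seen. Alternatives were another pseudocount, no filter, short transcripts kept, quantile normalization, libraries counted singly with and without a replicate block, fits of 2 groups, and each library left out.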

Additional observations from a re-analysis of the deposited data

Results flagged for a closer look

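Ebp was the only one of the 32 tested genes whose difference between the rescue forms passed its own test. The log2 difference of TAFH-deleted minus wild-type rescue was 1.07, both groups being clones labelled Taf4 -/- with a human transgene. Ebp is X-linked, and the 381 tested X genes had a median of 0.59 in this comparison. No group had the 4 samples needed to look for a library far from its group.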

How the results depend on the processing

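The number of genes of the list called between TAFH-deleted and wild-type rescue was 1, where 2.62% of all genes were called. It was 0 with a pseudocount of 0.1 (1.18% of all genes called), with no filter (0%) and with short transcripts kept (0.868%). After quantile normalization (1.36%) and in the fit of the 2 rescue groups (1.91%) it was 0 as well. It was 8, all higher, with the 8 libraries counted singly, where 38% of all genes were called. Leaving out 1 library gave 0 to 13, and a form's lone clone is then assumed to vary like the other samples. For knockout against control the count was 0, 4 with libraries counted singly (23.8% of all genes), and 0 to 3 with 1 library left out. For wild-type rescue against knockout it was 0, 6 with libraries counted singly (24.9% of all genes), 7 in the fit of those 2 groups (26.4%), and 0 to 8 with 1 library left out. For TAFH-deleted rescue against knockout it was 0, 1 with libraries counted singly (8.93% of all genes), and 0 to 8 with 1 library left out.

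The replicate block, in the fit of 8 single libraries, gave 8 calls between the rescue forms (32.6% of all genes), 3 for knockout against control (16.8%), 6 for wild-type rescue against knockout (18.6%) and 0 for TAFH-deleted rescue against knockout (3.83%). Same-numbered samples did not deviate together (correlations of deviations -0.078 to 0.057), so the numbers do not pair them.

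The median of knockout minus control was -0.17. It was -0.19 with a pseudocount of 0.1, -0.050 after quantile normalization, -0.17 to -0.16 with 1 library left out, -0.13 without Idi1 (chosen after seeing the data, as was the next), and -0.36 without genes using at least 20% of read starts. With 1 library left out the median was 0.13 to 0.43 between the rescue forms, -0.39 to 0.00033 for wild-type rescue against knockout and 0.073 to 0.18 for TAFH-deleted rescue against knockout. Scd1 between the rescue forms ranged from -0.73 without TAFH-deleted clone 1 to a reversed 0.0096 without TAFH-deleted clone 2. Among the other values of named genes, 307 kept their direction and side of the threshold, 39 passed it only under the alternative and 7 no longer passed it. A fit of the knockout and control groups alone has 1 sample a side and was not run. Precision is limited by 2 clones per form, and levels near 0 rest on few fragments. The cause of these shifts was not tested.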
